A study of Mus musculus with 4 samples.

Results

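The probesets described here are bright exon probesets whose difference between untreated and TGF-beta-treated cells departed from that of the rest of their gene. A probeset is a small group of array probes that covers an exon or a part of one, and its intensity is the brightness of the hybridised signal on a linear scale. A probeset was bright when the larger of its intensities in the untreated and the TGF-beta array was at or above 938, the 75th percentile of all exon-level values. It was tested when the platform annotation gave it 1 gene symbol and its gene had at least 5 such probesets. Its departure was its own log2(intensity + 1) difference, TGF-beta minus untreated, minus the median difference of the gene's other bright probesets. A departure of at least 1 in size, which is 2-fold, made it a member. Of 229581 probesets on the array, 53496 in 4760 genes were tested, and 613 of them in 446 genes departed. The same intensities chose the members and give their departures, so the values below are descriptions and no test was made.

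Many genes yield several messenger RNAs, because exons can be included or skipped by the splicing machinery and because transcription can start at more than 1 promoter or end at more than 1 site. An exon array reads each part of a transcript on its own, so that a part which does not follow the whole gene can be seen. During the epithelial-mesenchymal transition that TGF-beta can induce, epithelial cells loosen their junctions and take on a spindle shape, and epithelial RNA-binding proteins such as Esrp1, Esrp2 and Rbm47 are known to set the exon choice of many genes of the cytoskeleton, adhesion and polarity.

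NMuMG is an established line of normal mouse mammary gland epithelium, and both groups were this 1 line in serum- and insulin-containing medium. The control group was left untreated, and the treated group was given recombinant human TGF-beta1 at 1 ng/ml for 24 h. Each condition had 1 array, whose RNA was summarised by the authors at exon level and at gene level (23332 transcript clusters). Both levels were taken to describe the same cultures, so they are not replicates and no difference has a replicate check. The SD given after a gene's difference is the spread among its other bright probesets, and how far cultures vary is unknown here.

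The exon-level median was 297 without and 239.5 with TGF-beta. Over the tested probesets the median difference was −0.17, and 67.1% had the lower intensity with TGF-beta. No detection value was used here, so intensities near the low end of the scale could not be told from background. At gene level, 9 of 11 mammary epithelial markers were measured and 6 of them were at or above the median of all gene-level values, 124. Their summed intensity was 19238 untreated and 14625 with TGF-beta, while Epcam (68.5 and 62.2) and Esrp1 (25.9 and 37.6) were dim in both. Of those 6, Cdh1 (4153 and 1698), Krt19 (4612 and 578) and Esrp2 (1416 and 682) were lower with TGF-beta. Krt18 (8494 and 9785), Cldn4 (241 and 1530) and Cldn3 (139 and 160) were higher, so the markers did not share 1 direction. The summed markers were 446 and 755 for fibroblasts, 161 and 231 for endothelium, 434 and 341 for leukocytes, 208 and 318 for adipocytes, and 353 and 629 for myoepithelium. Of the measured markers, 1 of 6, 0 of 4, 1 of 4, 1 of 4 and 1 of 5, in that order, were at or above the same median. Among the myoepithelial markers Acta2 (77.1 and 286) differed most, while Krt14 (73.8 and 72.2) was nearly level. The part of these differences in the departures was not tested. Wherever a pair of intensities is given, the untreated value comes first and the TGF-beta value second.

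Hnf4a, a nuclear receptor of liver and gut epithelium that is known to be transcribed from 2 promoters, held the departure furthest above its gene after that of Cyp2s1. Its start windows are shown because the array values split between 1 probeset and the other 12 bright ones of the gene. The windows come from RefSeq (GRCm38.p6), run from 250 bases before to 50 bases after the annotated start on the transcribed strand, and the starts lie 40298 bases apart. Capitals mark CACCTG or, on the other strand, CAGGTG, the E-box that Snail and Zeb factors bind.
Hnf4a, upstream start, chr2:163506607-163506906, plus strand: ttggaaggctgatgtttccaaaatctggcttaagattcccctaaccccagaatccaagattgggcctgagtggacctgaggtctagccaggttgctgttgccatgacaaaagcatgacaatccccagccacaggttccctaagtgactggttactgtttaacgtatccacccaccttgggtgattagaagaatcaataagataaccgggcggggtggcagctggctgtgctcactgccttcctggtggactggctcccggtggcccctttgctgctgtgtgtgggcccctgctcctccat
Hnf4a, downstream start, chr2:163546905-163547204, plus strand: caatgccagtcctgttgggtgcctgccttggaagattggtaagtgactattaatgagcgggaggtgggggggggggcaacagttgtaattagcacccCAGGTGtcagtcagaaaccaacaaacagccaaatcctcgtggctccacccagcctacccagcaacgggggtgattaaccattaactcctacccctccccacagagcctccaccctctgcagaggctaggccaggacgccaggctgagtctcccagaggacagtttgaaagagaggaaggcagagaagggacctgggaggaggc
The upstream window held no such E-box and the downstream window held 1. Of all 32851 start windows of this length, 20.2% held at least 1. These letters do not show binding, and which transcript each probeset reads is not known here, since the probesets came without positions or probe sequences.

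Serinc2, a member of the serine incorporator family, is shown for the opposite direction, as a gene far higher with TGF-beta whose RefSeq models give 3 starts and in which 3 of 8 bright probesets followed by less.
Serinc2, start 1, chr4:130271385-130271684, minus strand: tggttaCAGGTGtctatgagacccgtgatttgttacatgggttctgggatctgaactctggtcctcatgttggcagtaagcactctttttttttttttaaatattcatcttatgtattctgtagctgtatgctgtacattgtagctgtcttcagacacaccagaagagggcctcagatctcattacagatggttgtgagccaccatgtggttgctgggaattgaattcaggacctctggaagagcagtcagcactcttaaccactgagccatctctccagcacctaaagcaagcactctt
Serinc2, start 2, chr4:130275171-130275470, minus strand: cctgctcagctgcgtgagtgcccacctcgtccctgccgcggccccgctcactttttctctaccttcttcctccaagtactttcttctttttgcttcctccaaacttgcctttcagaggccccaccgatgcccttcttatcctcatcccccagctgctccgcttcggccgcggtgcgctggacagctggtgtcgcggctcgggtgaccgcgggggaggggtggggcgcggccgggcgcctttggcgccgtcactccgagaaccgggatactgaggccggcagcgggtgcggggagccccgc
Serinc2, start 3, chr4:130275537-130275836, minus strand: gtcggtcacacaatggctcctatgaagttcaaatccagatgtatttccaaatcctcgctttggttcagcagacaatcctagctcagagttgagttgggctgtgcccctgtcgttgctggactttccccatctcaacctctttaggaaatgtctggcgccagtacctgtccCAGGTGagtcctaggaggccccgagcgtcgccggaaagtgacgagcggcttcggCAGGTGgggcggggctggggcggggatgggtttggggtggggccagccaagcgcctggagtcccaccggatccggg
The CAGGTG E-box stood once in the window of start 1, at no place in that of start 2 and at 2 places in that of start 3. The 3 departing Serinc2 probesets differed by 0.83 (1132 untreated, 2007 with TGF-beta), 1.37 (640 and 1659) and 1.74 (317 and 1057). The first of them lay 2.24 below the 3.06 ± 0.77 (SD, n = 7) of the others. All of them were thus higher with TGF-beta, by less than the rest of the gene.

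More members lay above their gene than below it. Above were 445 members in 359 genes and below were 168 in 124 genes, which is 0.832% and 0.314% of the tested probesets, or 1.15% in either direction. Genes with at least 1 member made up 9.37% of the genes tested. Because these shares follow from the rule itself, they are the background for every count of members below. The spread of departures was small: 93.4% of tested probesets lay within 0.5 of their gene, and the SD over all of them was 0.30. Of the members above, 61 departed by at least 2 and 12 by at least 3. Of those below, 7 departed by at least 2 in size and 1 by at least 3. In the plot of probeset against gene differences, most members above sit at the left, over genes that were lower with TGF-beta.

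**Figure D1:**
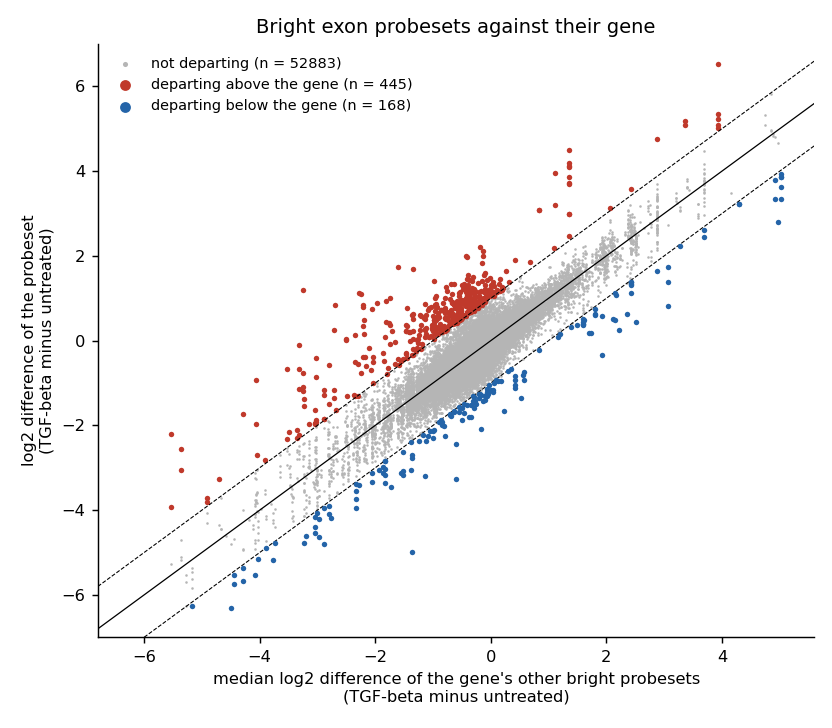
Each point is 1 bright probeset, with the median log2 difference of the other bright probesets of its gene on the x axis and its own log2 difference, TGF-beta minus untreated, on the y axis. The solid line marks equal values and the dashed lines a departure of 1 either way. The 445 members above (red) lie mostly over genes with negative differences, and the 168 below (blue) spread over both sides.

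Of the members above, 400 (89.9%) belonged to genes whose other bright probesets had a negative median difference, compared with 71.5% of all tested probesets. Their own median difference was 0.72, against −0.65 for the rest of their genes. Thus 363 of them had the higher intensity with TGF-beta, 127 by at least 1, whereas 82 had the lower intensity, 39 by at least 1. Of all tested probesets, 2.93% were higher by at least 1 and 6.82% lower by at least 1. Members below had a median difference of −1.50, against −0.30 for the rest of their genes. Of these, 123 had the lower intensity with TGF-beta and 45 the higher one, and 103 (61.3%) belonged to genes that were lower. After quantile normalization 79.7% of the members above were in lower genes, against 57.3% of the tested probesets, and after removal of a lowess curve 80.7% against 58.8%. Those scalings moved the median gene difference of the tested probesets from −0.17 to −0.05 and −0.06.

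Departures were most frequent in genes with large differences of their own. Where the other probesets of the gene were lower by more than 2, 10.8% of the 667 tested probesets lay above and 4.65% below. Where the gene was higher by at least 2, 2.54% of 393 lay above and 7.38% below. In between, for genes that differed by less than 0.5, the shares were 0.476% above and 0.101% below on the lower side and 0.166% and 0.123% on the higher side. In both kinds of strongly different genes, the larger share therefore lay on the side of a smaller difference than the rest of the gene.

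**Figure D2:**
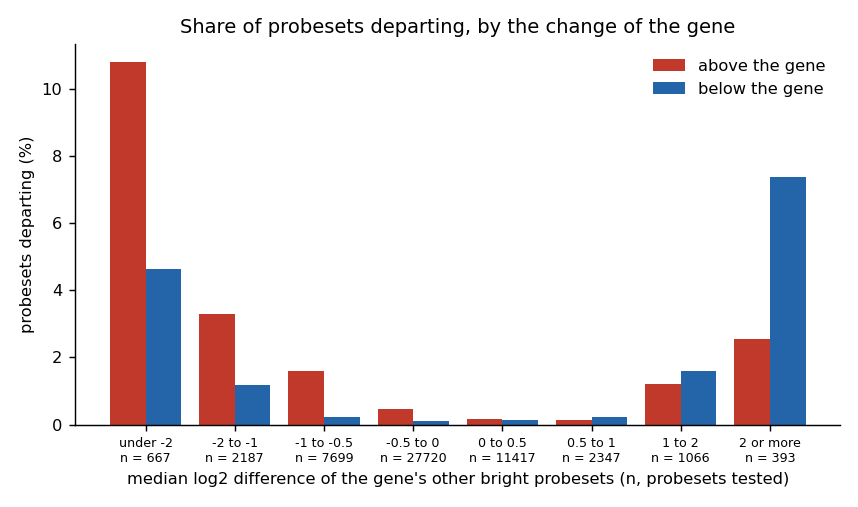
Bars give the percentage of tested bright probesets that departed above (red) or below (blue) their gene, grouped on the x axis by the median log2 difference of the gene's other bright probesets, with the number tested under each group. The share above is 10.8% where the gene was lower by more than 2, and the share below is 7.38% where it was higher by at least 2.

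The 446 genes with members had a median difference of −0.51, against −0.17 in the other 4314 tested genes. Of them, 116 (26.0%) were lower by at least 1 and 27 (6.05%) were higher by at least 1, compared with 164 (3.80%) and 109 (2.53%) of the others. The rule did not use the annotation of transcripts. Among member genes 254 of 446 (57.0%) had at least 2 curated RefSeq messenger RNAs, against 2205 of 4308 (51.2%) of the other tested genes that RefSeq listed. At least 2 annotated starts were listed for 95 of 356 member genes (26.7%) and for 769 of 3578 others (21.5%). Both shares were somewhat larger in member genes, and neither difference was tested.

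Most member genes, 354 of 446, held 1 member, while 61 held 2 and 31 held at least 3. In 322 genes all members lay above, in 87 all lay below, and in 37 they lay on both sides. Intensities also differed between members and all tested probesets. The rule needed only the larger intensity to be bright and chose members by the difference between the 2 intensities, so the shares that follow depend in part on it. Both intensities were at or above 938 in 243 members (39.6%), compared with 78.5% of the tested probesets. Of the members below, 117 were bright in untreated cells alone, and of those above, 176 were bright with TGF-beta alone. The smaller intensity of a member had a median of 794 and went down to 17.4, and in 89 members it was under 265, the median of all exon-level values. Among tested probesets ordered by mean intensity, the lowest 10% held 120 members above and 113 below, and the highest 10% held 10 and 4. The exact size of a departure is uncertain where the smaller intensity is this low.

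Part of the exon-level values lay on a grid with steps of 0.5 and a shared offset of 0.061 and a tolerance of 0.005. Both values of a probeset lay on it for 1232 tested probesets (2.30%) and for 65 members (10.6%). Of the grid probesets 5.28% departed, against 1.05% of the 52264 others, and their departures had an SD of 0.50 against 0.29. Members on the grid are said to be so where they are named. What made these values is not given in the sources used here, and their part in the departures was not tested.

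Of the 12 members furthest above their genes, all but that of Col7a1 were in genes whose other bright probesets had a negative median difference. For Cyp2s1, a cytochrome P450 enzyme, probeset 5196537 had an intensity of 488 untreated and 1112 with TGF-beta, a difference of 1.19. The other 10 bright probesets had a median of −3.25 ± 1.41 (SD), which put it 4.44 above the gene, and both of its values lay on the 0.5-unit grid. The Hnf4a probeset outside the gene's trend, 5182575, had 835 and 1502, a difference of 0.85, while the other 12 had a median of −2.70 ± 0.36. It was the only bright Hnf4a probeset that was higher with TGF-beta, since those 12 were all lower. At gene level Hnf4a had 3732 untreated and 603 with TGF-beta.

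Arhgef10l encodes a guanine nucleotide exchange factor. Its probeset 5554552 had 689 and 1495, a difference of 1.12 against −2.29 ± 0.36 (SD, n = 4) for the others. Grb7, an adaptor that docks on receptor tyrosine kinases, had a probeset on the 0.5-unit grid with 586 and 1256, 3.34 above the gene. For Setbp1, which binds the nuclear protein SET, probeset 4847916 had 1081 and 3589, a difference of 1.73 against −1.60 ± 0.24 (SD, n = 4). Adcy9, an adenylyl cyclase that makes cyclic AMP, had a probeset with 567 and 1827, 3.03 above a gene at −1.34 ± 0.85 (SD, n = 5). In each of these 4 genes the named probeset was higher with TGF-beta while the median of the rest was lower.

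In other genes the member was lower too, but by less. The sulfotransferase Sult1c2 had a probeset with 1278 untreated and 275 with TGF-beta, a difference of −2.21 against −5.53 ± 0.86 (SD, n = 5). Il33, an alarmin cytokine of epithelial cells, had a probeset with 2709 and 1422, a difference of −0.93 against −4.06 ± 0.98 (SD, n = 7). That probeset was bright in both arrays, so its own difference does not rest on a dim value. Its mean log2 intensity lay 2.42 above the median of the other 7, so the departure may still rest on dim values of those. Complement C3, the central protein of the complement cascade, had 4 members above and 2 below among 16 bright probesets. The highest had 1002 and 928, a difference of −0.11 against −3.32 ± 0.98 (SD, n = 15), and the lowest had 993 and 57.3, a difference of −4.09.

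Among members bright in both arrays, further parts of lower genes were higher with TGF-beta or close to their untreated intensity. Fmnl2, a formin that builds actin filaments at the cell edge, had a probeset with 947 and 1766, a difference of 0.90 against −1.97 ± 0.43 (SD, n = 6). Mlph, which links melanosome-type vesicles to a myosin motor, had a probeset with 1047 and 1320, a difference of 0.33 against −2.21 ± 0.67 (SD, n = 15). The Notch receptor gene Notch1 had a probeset on the 0.5-unit grid with 2324 and 1750, a difference of −0.41 against −3.03 ± 0.73 (SD, n = 29). Dlk2, a membrane protein related to Notch ligands, had a probeset with 1429 and 2011, a difference of 0.49 against −2.19 ± 0.88 (SD, n = 6). All 30 bright Notch1 probesets were lower with TGF-beta, 5 of them members, whereas in Dlk2 this member was the only one of 7 that was higher.

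The 12 members furthest below their genes included those of Col12a1, Serinc2, Il11, Sh3bp2 and Mab21l4, whose other bright probesets were higher with TGF-beta by a median of at least 1. For Col12a1, a collagen that decorates collagen fibrils, probeset 5014375 had 1435 untreated and 1132 with TGF-beta, a difference of −0.34. The other 15 bright probesets had a median of 1.93 ± 0.43 (SD), so it lay 2.27 below the gene. Il11, a secreted cytokine of the gp130 group, had a member with 221 and 1552, a difference of 2.81 against 4.96 ± 0.28 (SD, n = 4). Sh3bp2, an adaptor that binds the kinase Abl, had a member with 1435 and 1698, a difference of 0.24 against 2.22 ± 0.25 (SD, n = 4). Mab21l4 had a member with 1449 and 1980, a difference of 0.45 against 2.51 ± 0.33 (SD, n = 10).

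The same direction, at a smaller size, was seen in 3 more genes in which both intensities were bright. Megf10, an engulfment receptor, had 1339 and 2076, which was 1.72 below its gene. Adamts7, a secreted metalloprotease, had 1258 and 1424, 1.56 below. Ctse, the aspartic protease cathepsin E, had 2237 and 2539, a difference of 0.18 against 1.70 ± 0.20 (SD, n = 11).

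A second kind of member below was bright in untreated cells and much less so with TGF-beta, while the median of the gene differed by little or the other way. Rai14, an ankyrin-repeat protein of actin bundles, had probeset 4456110 with 1026 and 243, a difference of −2.08 against −0.17 ± 0.23 (SD, n = 16). The autophagy kinase Ulk2 had probeset 4828109 with 1150 and 449, a difference of −1.36 against 0.52 ± 0.16 (SD, n = 11). Vps33b, a protein of endosome and lysosome traffic, had probeset 4504844 with 4184 and 1196, a difference of −1.81 against −0.35 ± 0.29 (SD, n = 14). The Vps33b probeset was bright in both arrays. Kifc1, a mitotic kinesin, had a probeset with 1147 and 363, a difference of −1.66 against 0.22 ± 0.74 (SD, n = 4).

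Other members below sat in genes that were themselves lower. Nedd4l is a ubiquitin ligase that removes the epithelial sodium channel from the membrane. Its probeset 4836449 had 3846 and 421, a difference of −3.19 against −1.14 ± 0.38 (SD, n = 21). Lcp1, the actin-bundling protein L-plastin, had a probeset with 1355 and 47.8, a difference of −4.80 against −2.88 ± 0.56 (SD, n = 6).

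**Figure D3:**
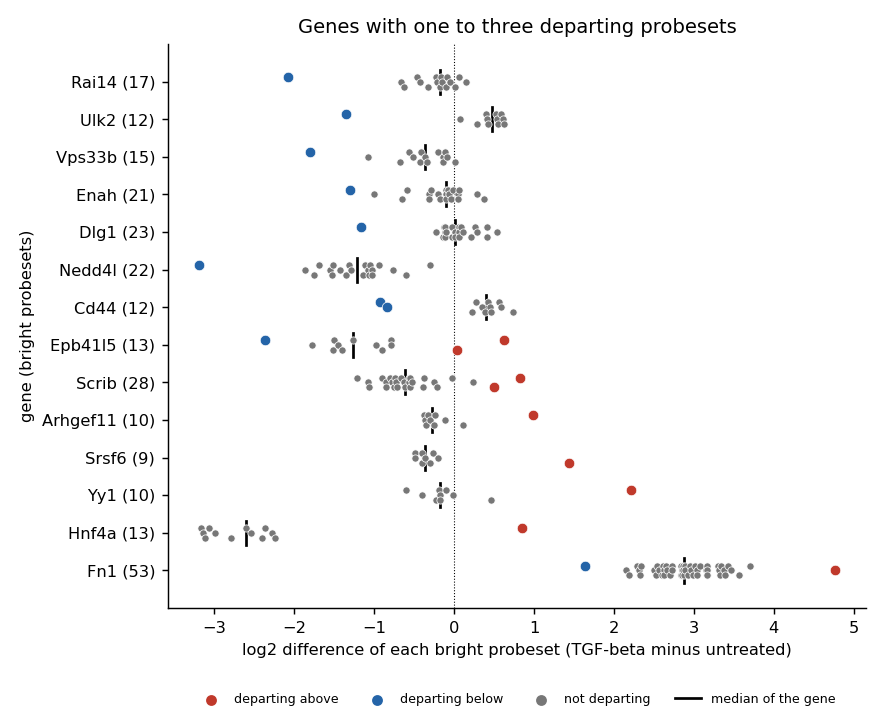
Each point is 1 bright probeset of the gene named on the y axis (number of bright probesets in parentheses), placed by its log2 difference, TGF-beta minus untreated. Members above are red, members below blue, other probesets grey, and the bar is the median of the gene. In Rai14, Ulk2, Vps33b, Hnf4a, Srsf6 and Yy1 a single member stands apart from a narrow group of the others.

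Members could be sorted by how probeset and gene differed. In 118 members of 109 genes the probeset differed by at least 1 while the rest of the gene differed by less than 0.5. Of these, 83 lay above and 35 below, and 33 were bright in both arrays. In 78 members of 69 genes the gene differed by at least 1 and the probeset by less than 0.5, 62 of them bright in both arrays. In 115 members of 105 genes both differed by at least 0.5 in opposite directions, and in 111 of those the probeset was the higher with TGF-beta. Of all tested probesets, 340 (0.636%), 123 (0.230%) and 115 (0.215%) had these patterns, in the same order. Opposite differences of at least 0.5 each make a departure of at least 1, so every tested probeset of that pattern was a member by the rule. The other 302 members differed in the same direction as their gene by another amount or fell between these limits.

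Of the 118, the following were chosen after their values were seen, for known roles in transcription, RNA processing and growth control. Yy1, a zinc-finger transcription factor, had a probeset on the 0.5-unit grid with 773 and 3571, a difference of 2.21 against −0.18. Srsf6, a splicing factor of the serine- and arginine-rich family, had a probeset with 2086 and 5645, a difference of 1.44 against −0.38 ± 0.10 (SD, n = 8), also on the grid. Foxj3, a forkhead transcription factor, had 1050 and 4172, 2.12 above its gene, and Ccnk, the cyclin K of transcription kinases, had 547 and 2166, 2.39 above. Wwtr1, the Hippo pathway co-activator Taz, had 1895 and 5190, a difference of 1.45 against 0.16 ± 0.13 (SD, n = 4). In all of these the probeset was more than 2-fold higher with TGF-beta and the rest of the gene nearly level. In the other direction, the polarity scaffold Dlg1 had a probeset with 1629 and 726, a difference of −1.16 against 0.03 ± 0.21 (SD, n = 22).

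Ttll5, an enzyme that adds glutamate chains to tubulin and other proteins, stood out among these genes by 4 members of alike size. They differed by 1.11 (1517 and 3271), 1.13 (819 and 1797), 1.15 (1166 and 2591) and 1.30 (1510 and 3732). The median of the others was −0.40, with an SD of 0.79 to 0.82 that includes the remaining members. Sntb2, a syntrophin of the dystrophin complex, had 2 members at 1.14 (2195 and 4845) and 2.01 (1126 and 4533), against −0.42. Both genes were likewise chosen after their values were seen.

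Of the 78 members that differed by less than 0.5 in a gene that differed by at least 1, 4 were named after their values were seen. Esrp2, the epithelial splicing regulator, had a probeset with 1308 untreated and 1679 with TGF-beta, a difference of 0.36. The other 13 Esrp2 probesets had a median of −1.22 ± 0.27 (SD). Pparg, a nuclear receptor of lipid metabolism, had a probeset with 1499 and 1649, a difference of 0.14 against −1.24 ± 0.21 (SD, n = 5). Magi3, a scaffold of epithelial junctions, had 1766 and 1307, a difference of −0.43 against −1.60 ± 0.29 (SD, n = 15). Vegfa, the vascular growth factor, differed in the other sense, with 1046 and 1476, a difference of 0.50 against 1.60 ± 0.34 (SD, n = 12).

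Of the 115 members opposite to their gene, those of Cyp2s1, Hnf4a, Arhgef10l, Grb7, Setbp1 and Rnf43 departed the most. Klf4, an epithelial transcription factor chosen after its values were seen, had a probeset with 620 and 1637, a difference of 1.40 against −0.98 ± 0.22 (SD, n = 6). Likewise Lrp5, a co-receptor of Wnt ligands, had a probeset with 1170 and 2618, a difference of 1.16 against −0.76 ± 0.21 (SD, n = 22). In Gcnt2, the glycosyltransferase of the I blood group antigen, the directions were turned, since 2 probesets were lower (1181 and 624, 1584 and 951) while the median of the others was 0.58.

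There were 8 genes that held at least 5 members each, and 61 members together. All of them held members on both sides. Col7a1, the collagen of anchoring fibrils, held 14 members, 10 above and 4 below, among 23 bright probesets of 119. All 23 were higher with TGF-beta, by 0.37 to 4.50. The 10 members above were dim in untreated cells, such as 4428314 with 49.3 and 1135, whereas the 4 below had untreated intensities of 914 to 1437, such as 5255324 with 1437 and 1859. At gene level Col7a1 had 144 untreated and 380 with TGF-beta, a difference of 1.40.

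Ctsw, a cathepsin protease, had all of its 10 bright probesets among the members, 5 above and 5 below. This split follows in part from the rule, which leaves the probeset itself out of the median. Probeset 5248685 (5.02) was set against 3.94 and 5267113 (3.94) against 5.02, while the median of all 10 Ctsw probesets was 4.48. All of them were higher with TGF-beta, by 3.34 (257 and 2611) to 6.53 (50.2 and 4730), and their untreated intensities ran from 43.1 to 376. Nt5e, the enzyme that makes extracellular adenosine, showed a similar split with 4 members among 5 bright probesets. It had differences of 5.18 and 5.10 in 2 members above and 3.23 and 3.22 in 2 below. The 2 below were set against 4.30, the median of the other 4, and lay close to the 3.50 of all 5. These genes were thus higher in every bright probeset, with sizes that rest on dim untreated values.

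In other genes with many members most or all bright probesets were lower with TGF-beta. Selenop, a secreted selenium carrier, had 4 members above and 4 below among 11 bright probesets. The 4 above were bright in both arrays, for example 5368956 with 10988 and 4901, while 5101842, below and on the 0.5-unit grid, had 2961 and 190. Cyp2s1 had 4 above and 3 below among 11, with the 3 below at −4.17 to −4.54. Itgb7, an integrin subunit known from leukocytes, had all 6 bright probesets among the members. A first Itgb7 member was nearly level at 1393 and 1660, and another had the lowest of all departures, −3.63, with 1131 and 34.6. The other 4 had differences of their own between −1.17 and −2.78. Of the 6 Itgb7 members, 3 lay above the gene and 3 below it. The centre, with the probeset itself left out, was −2.71 for the members above and −1.36 for those below. The median of all 6 was −2.03, so this split follows in part from the rule.

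Rnf43, a ubiquitin ligase that clears Wnt receptors from the cell surface, split into 2 groups without values in between. Its probesets 5085321 (934 and 1688) and 5276718 (1538 and 2674) were higher by 0.85 and 0.80. The 3 others were lower by at least 2, with 1243 and 309, 994 and 183, and 964 and 98.6. All 5 bright probesets were therefore members, and the median of the gene was that of 1 of them. RefSeq listed 2 messenger RNAs and 2 starts for Rnf43, and which of them the 2 higher probesets read is not known here.

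**Figure D4:**
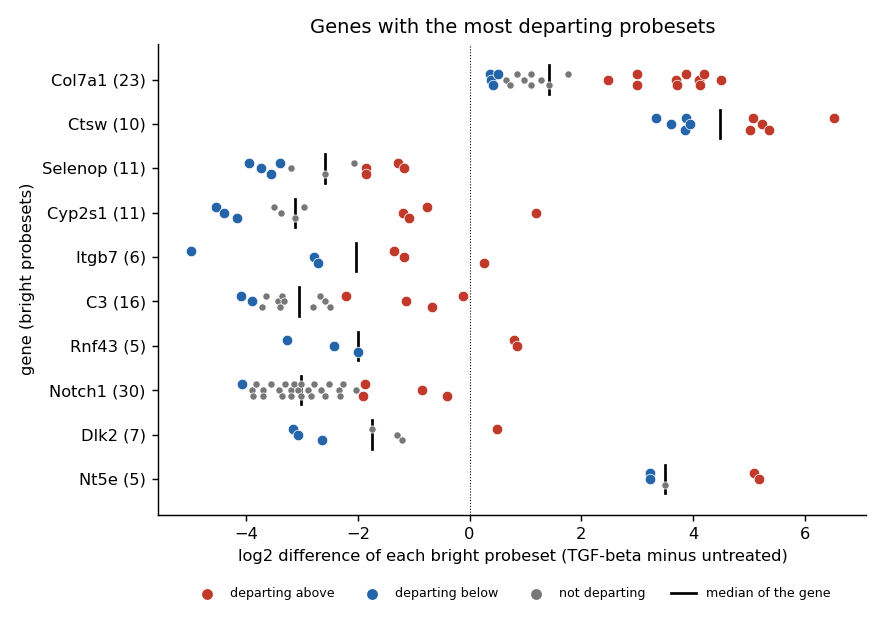
Each point is 1 bright probeset of the 10 genes with the most members (number of bright probesets in parentheses), placed by its log2 difference, TGF-beta minus untreated, with members above in red, below in blue and the gene's median as a bar. Ctsw, Itgb7 and Rnf43 have every bright probeset among the members, and the Rnf43 probesets fall into a higher pair and a lower group of 3. Each probeset was compared with the median of the others and not with the bar, so some members lie within 1 of the bar.

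Genes known for exon choices that differ between epithelial and mesenchymal cells, or that Esrp proteins regulate, formed a list of 55 genes. Of these, 40 had at least 5 bright probesets and 9 held members, 8 above and 6 below, which is 2.05% of 683 probesets tested against 1.15% overall. The count of 14 was 25 with the gene-level difference as the centre, 6 with both intensities bright and 58 with the 50th percentile. Epb41l5, a polarity protein that is needed when epithelial cells leave their layer, held 3. Of these 5440374 had 814 and 1259 and 4565854 had 1021 and 1044, differences of 0.63 and 0.03 against −1.34 for the others. The third Epb41l5 member, 5579265, had 1338 and 259 and lay 1.24 below the gene. Scrib, a polarity scaffold, had 2 members above, 5375133 on the 0.5-unit grid with 2512 and 4462 and 4997388 with 735 and 1041, in a gene at −0.63. Arhgef11, another guanine nucleotide exchange factor, had 5568999 with 1249 and 2483, a difference of 0.99 against −0.30 ± 0.16 (SD, n = 9).

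Enah, an actin-polymerising protein with a known epithelial exon, had 1 member below, 5056475, with 940 untreated and 380 with TGF-beta, a difference of −1.31 against −0.10 ± 0.32 (SD, n = 20). The kinase Map3k7, which signals below TGF-beta receptors, had 4995133 with 3049 and 5555, 1.07 above its gene. Fibronectin, Fn1, held 2 members among 53 bright probesets that were all higher. Of these 5201971 had 149 and 4070, 1.89 above a gene at 2.87, and 4630426 had 4270 and 13231, 1.25 below it. In Cd44, the hyaluronan receptor whose variable exons Esrp proteins control, 4964816 (2124 and 1185) and 4740112 (1247 and 654) differed by −0.84 and −0.93, while the other 10 bright probesets were all higher by 0.23 to 0.74. The Cd44 transcript cluster at gene level had 1225 and 666, a difference of −0.88, opposite to the median of 0.40 over its bright probesets. Those cluster intensities were close to those of 4740112. Of the 10 higher probesets, 4618763 had 743 and 1098, and the rest were brighter than the cluster, up to 14531 and 18532 in 5095380.

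Of 691 probesets of extracellular matrix and integrin genes, 11 lay above and 16 below (3.91%), in 7 of 31 genes, and without Col7a1 the count was 1 above and 12 below (1.95% of 668). This list's count was 3 with both intensities bright and 77 with the 50th percentile. Fn1 and Cd44 stand both on this list and on the epithelial-mesenchymal and Esrp list, so their members count in both. Members below included 3 of Col5a1, a fibril-forming collagen (differences of 0.60 to 0.74 against 1.80), 2 of the matricellular Thbs1 (1.31 and 1.34 against 2.42) and 2 of tenascin Tnc (2.45 and 2.62 against 3.69). All of these were higher with TGF-beta, by less than the rest of their gene. Junction and polarity genes had 7 members in 4 of 18 genes (2.41% of 290), including 3 of the plakin Ppl and the 2 of Scrib already counted above. Their count was 2 with the rule that both intensities be bright and 30 with the 50th percentile. A Ppl probeset with 1193 and 799 lay 2.22 above a gene at −2.79, and another with 2521 and 138 lay 1.41 below it.

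The other lists held few members. Splicing factors and RNA-binding proteins had 4, all above, in 3 of 44 genes (0.763% of 524), which were those of Esrp2 and Srsf6 given above and 2 of Rbm47. The Rbm47 probesets had 2557 and 594 and 1076 and 220, differences of −2.10 and −2.29 in a gene at −3.35. Genes of mitosis and DNA replication had 3 (0.518% of 579), 1 each in Mcm4 (695 and 1245), Cdc45 (639 and 1005) and Pole (1042 and 1213). Tropomyosins and actin-binding proteins had 1 (0.227% of 440), which was that of Enah, and ribosomal proteins had 1 (0.397% of 252), in Rpl8 with 1758 and 708. With the gene-level difference as the centre, ribosomal proteins had 15 and splicing factors 9. The TGF-beta pathway and its feedback genes had none in 192 probesets of 19 genes, where departures ran from −0.75 to 0.9976. That list had 7 members with the 50th percentile, 2 with at least 3 bright probesets per gene, and 1 each after quantile normalization and lowess removal. The median departure lay between −0.0031 and 0.0032 in all 8 lists and was 0.00 over all tested probesets, as centring on the gene's median gives.

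**Figure D5:**
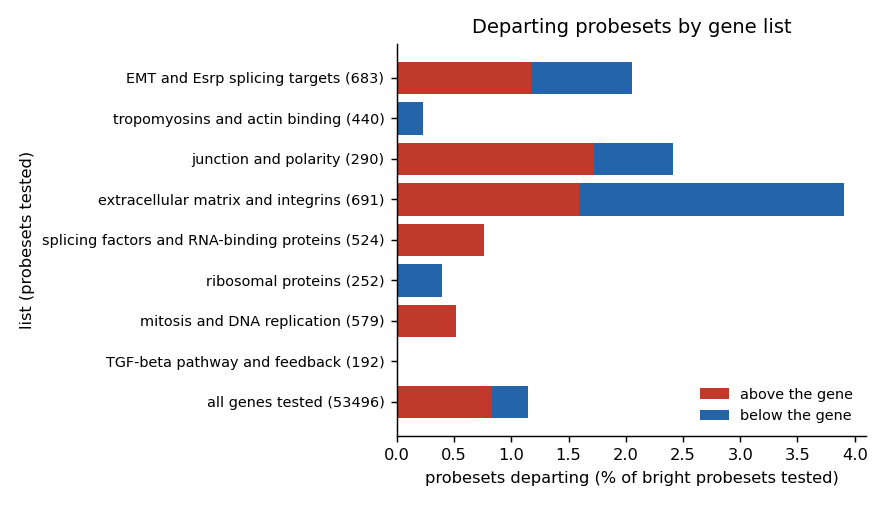
Bars give the percentage of tested bright probesets that departed above (red) or below (blue) their gene for each list, with the number tested in parentheses, beside all genes tested. The matrix and integrin list stands at 3.91%, of which Col7a1 supplies 14 of 27 members, and the TGF-beta pathway list at 0.

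The limit at 1 cut through a continuous range. Just inside it above were probesets of Nr2f2 (1.0008), Sptbn4 (1.0010) and Tsc1 (1.0021), and just outside were Prkag2 (0.9998), Nelfe (0.9992) and Smad4 (0.9976). Just inside it below were Fam149a (−1.0015), Abca7 (−1.0048) and Myo6 (−1.0052), and just outside were Snx9 (−0.9980), Gnptg (−0.9967) and Ak1 (−0.9964). The Smad4 probeset, of the common partner of receptor-activated Smads, had 929 untreated and 1649 with TGF-beta, a difference of 0.83 against −0.17 ± 0.15 (SD, n = 17). Relative to the spread within their own gene, 370 members (60.4%) lay more than 3 SD of the other probesets from the median. Members were chosen by a departure of at least 1, so this share follows in part from the rule. The same share over all tested probesets was not computed. The median SD of the others was 0.35 for members and 0.21 for all tested probesets.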

How the data were processed

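The authors deposited intensities on a linear scale, per the value tables of the series, for RNA of untreated and TGF-beta-treated NMuMG cells, with 1 array per condition summarised per exon probeset and per transcript cluster. The sources used here do not give the background correction, normalization, software or build, and the number of arrays limits the precision. From these values, log2(intensity + 1) differences, departures and counts were computed with Python 3.11.15, numpy 2.4.6, pandas 2.3.3 and statsmodels 0.14.6 (lowess span 0.3), and plotted with matplotlib 3.10.9. The departure script recovered the known changes when it was tested on simulated data. The planted changes were larger than the limit of 1 and lay in probesets well above the intensity threshold. Recovery near that limit or among dimmer probesets was not tested.

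Of the exon probesets, 209279 had 1 symbol in the platform annotation, 4446 had several and 15856 had none, and the last 2 kinds were left out. A RefSeq gene table (GRCm38.p6), used for names, transcripts and starts, updated the symbols: 184498 by symbol, 24312 by synonym, and 469 kept. The members, lists and markers were chosen with earlier results of these data known. Named probesets were the 12 furthest each way, the 8 furthest each way with both intensities bright, those of the 10 genes with the most members, of the 6 genes with most members both ways and of the epithelial-mesenchymal and Esrp list, the 3 on either side of the limit, and the 6 furthest in the opposite direction to their gene. A further rule, on runs of members next to each other by identifier, was not used, because identifiers of a gene's probesets were scattered over a median of 91.3% of the identifier range. With 1 array per group no test was made. Alternatives changed the intensity rule, the probeset minimum, the pseudocount, the centre, the scaling, the size rule and the symbols.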

Additional observations from a re-analysis of the deposited data

How the results depend on the processing

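The main counts were 445 members above, 168 below and 446 genes. They depended most on the intensity rule. With the 50th percentile they were 2191, 1752 and 2361, and 554 of the 613 members were among them. With both intensities at or above the 75th percentile they were 105, 11 and 105, of which 114 probesets were shared with the main set. A minimum of 10 bright probesets per gene gave 230, 102 and 229. It left 36699 probesets tested, of which 0.905% were members, against 1.15% in the main set. A departure of at least 1.5 gave 159, 32 and 145 among the same 53496 tested probesets, through the stricter limit. All other alternatives stayed within 1.5 times the main counts, from 387 to 562 above, 113 to 227 below and 390 to 578 genes. These were a minimum of 3 probesets, a pseudocount of 32, the mean or the gene-level difference as the centre, quantile normalization, lowess removal, symbols as annotated and, chosen after seeing the data, leaving out the grid probesets or the 8 genes with at least 5 members. Members above made up 72.6% in the main set, 80.1% after quantile normalization and 78.4% after lowess removal. The intensity rule moved this share the most, to 55.6% with the 50th percentile and 90.5% with both intensities bright.

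Of 110 named probesets, 87 still departed by at least 1 with a pseudocount of 32, 84 with the mean, 72 with the gene-level centre, 79 after quantile normalization and 99 after lowess removal. With both intensities bright, 8 did and 98 could not be computed, while Selenop 5370709 and 4834521 turned to −0.28 and −0.29, since only the brighter Selenop probesets were then compared. With the gene-level centre Cd44 4964816 turned to 0.037, since the gene-level difference of Cd44 is itself negative. The counts per list moved by more than 1.5 times under several of these. In the order epithelial-mesenchymal, tropomyosin, junction, matrix, splicing, ribosomal, mitosis and TGF-beta list, they were 14, 1, 7, 27, 4, 1, 3 and 0 in the main set, 58, 18, 30, 77, 17, 5, 13 and 7 with the 50th percentile, 6, 0, 2, 3, 2, 0, 0 and 0 with both intensities bright, 4, 0, 1, 11, 2, 0, 0 and 0 with a departure of at least 1.5, and 25, 3, 6, 29, 9, 15, 3 and 0 with the gene-level centre. No paired analysis was possible because each group has 1 array. All values are limited by the single array per condition, and no detection value was used here for dim signals.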

Other observations

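The gene-level summary was set beside the centre used here. Both levels were taken to summarise the same hybridised RNA, so their closeness is not a separate check. Of 429 member genes with a gene-level cluster, 411 (95.8%) had a gene-level difference within 0.5 of the median of their bright probesets, against 3937 of 3991 other tested genes (98.6%). The signs were the same in 410 of the 429 and in 3729 of the 3991. A gap of at least 1 was found in 5 member genes (1.17%) and in 10 others (0.251%). Rfng, a glycosyltransferase that modifies Notch, was chosen after its values were seen as a gene with members both ways: 4 of its 6 bright probesets departed, with differences of −1.12 (1027 and 471), −1.04 (1044 and 509), 0.66 (4080 and 6447) and 1.07 (1017 and 2139), and its gene-level difference was −0.93.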
